A study of Mus musculus with 25 samples.

Results

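Genes for the uptake and mitochondrial oxidation of fatty acids were examined in the gastrocnemius, a mostly fast-twitch calf muscle, of male SAMP8 mice. Of 10 genes named for the pathway (Lpl, Cd36, Fabp3, Cpt1b, Cpt2, Acadvl, Acadl, Acadm, Hadha and Hadhb), 9 had a row in the table of 8829 genes. Cpt1b was not analysed here. SAMP8 is an inbred strain with accelerated senescence. From 8 months of age the mice received by oral gavage either vehicle (corn oil, Control, n = 11) or thymol, a phenolic compound of thyme (Thymol, n = 14). The dose was 20 mg per kg body weight on each day of dosing, per the paper most days of the week. Treatment lasted 3 months. All mice shared the strain, sex, age and muscle, and each gave 1 library of 3′ mRNA tags, with 4463818 to 9463418 reads on the genes of the table. A library from young or non-senescent mice was not analysed here. Mice are named by the last number of their label.

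Skeletal muscle takes up fatty acids from circulating lipoproteins and from albumin. Lipoprotein lipase (Lpl) releases them from triglyceride at the capillary wall, CD36 carries them across cell membranes and the heart-type binding protein FABP3 holds them in the cytosol. The carnitine shuttle brings long-chain acyl groups into mitochondria, where the inner-membrane enzyme CPT2 restores acyl-CoA. Each round of β-oxidation then starts with an acyl-CoA dehydrogenase (ACADVL for very long, ACADL for long and ACADM for medium chains), and for long chains the remaining steps are carried out by the trifunctional protein, built of HADHA and HADHB. Slow and fast oxidative (2A) fibres are rich in mitochondria and oxidise more fat than the fast glycolytic fibres that make up most of a mouse gastrocnemius.

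The labelled tissue was checked against its markers. The muscle genes Acta1 and Ckm had mean levels of 14.69 and 13.83 log2 CPM (tags of a gene scaled to the size of its library), and Myh4, the myosin of the fastest fibres, had a mean of 15.04. Myh7, the slow myosin, averaged 7.99 but was 1.68 in Thymol 20, against 10.08 in Thymol 6. Thymol 20 stood apart from all others in most slow-fibre genes, so values that moved most without it are also given without it. Of these genes, Csrp3 was instead highest in Thymol 20 (6.85), and Casq2 was lowest in Thymol 28 (3.80). In bulk muscle, fewer cells of a type and less RNA per cell cannot be told apart.

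The sequences around 2 features of these genes are shown because the genes moved together between mice, as described further on. Whether these sequences play a part in that was not tested. Hadha and Hadhb, which encode the subunits of a single complex, lie head to head on chromosome 5. RefSeq places their starts farther apart than GENCODE M21, which leaves 85 bases between their annotated ends. These bases, chr5:30155163-30155247 on the plus strand of GRCm38, are given from the RefSeq promoter table with the 2 copies of GGGCGG, a GC box, in capitals.
Between Hadha and Hadhb: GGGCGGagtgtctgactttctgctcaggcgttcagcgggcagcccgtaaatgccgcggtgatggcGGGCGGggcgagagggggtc
Nuclear receptors of fat metabolism, such as the PPARs, bind copies of AGGTCA. A single AGGTCA on either strand was found in the RefSeq promoters (250 bases before to 50 after the start) of 3 of the 8 genes with an entry, and in 16.3% of 32851 promoters. GGGCGG was found in 5 of these 8 and in 35.7% of all promoters, and CCAAT in 1 of these 8 and in 37.4% of all promoters. The windows of Hadha and Hadhb overlap, and the only GGGCGG of the Hadha window is the first copy shown above. It is also counted for Hadhb, so the 5 are not separate observations. The Lpl promoter was not analysed here. Neither a pair of AGGTCA copies 1 base apart in the same orientation (0.0396% of promoters) nor TCAAGGTCA (0.423%) was found in these 8 windows. The 3 matches of AGGTCA are shown 5′ to 3′ on the strand of each gene (minus for all of them), with the motif or its reverse complement in capitals. They lie at chr5:17836102-17836141 (Cd36), chr11:70015493-70015532 (Acadvl) and chr3:153944870-153944893 (Acadm). The Cd36 window lies inside the gene as annotated by GENCODE M21. The bases at its annotated 5′ end (chr5:17888801) were not searched.
Cd36: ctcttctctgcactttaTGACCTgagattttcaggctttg
Acadvl: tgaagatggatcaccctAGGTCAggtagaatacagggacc
Acadm: gTGACCTtcgggctccggtgacac

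The comparison of Thymol with Control mice asked whether thymol changed muscle transcripts in this ageing strain. For none of the 9 genes did the test find a difference beyond the spread between mice. Every gene had a slightly higher mean with thymol, by 0.01 (Cd36) to 0.17 (Fabp3) on the log2 scale, and every 95% interval included 0. The 9 genes are correlated, so their shared sign is not 9 separate observations. With limma, 0 of 8829 genes (0.0%) passed an adjusted p of 0.05 (Benjamini-Hochberg over all genes), and 312 (3.53%) passed an unadjusted p of 0.05, of which 162 (1.83%) were higher and 150 (1.7%) lower with thymol. Voom weights on the recovered reads also gave 0 adjusted calls and 304 genes at an unadjusted p of 0.05. Of the 9 genes, 0 passed the unadjusted threshold. Their median difference was 0.06, beside -0.0014 over all genes, and it ran from 0.02 (without Thymol 24) to 0.11 (without Control 14) with each mouse left out in turn.

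**Figure D1:**
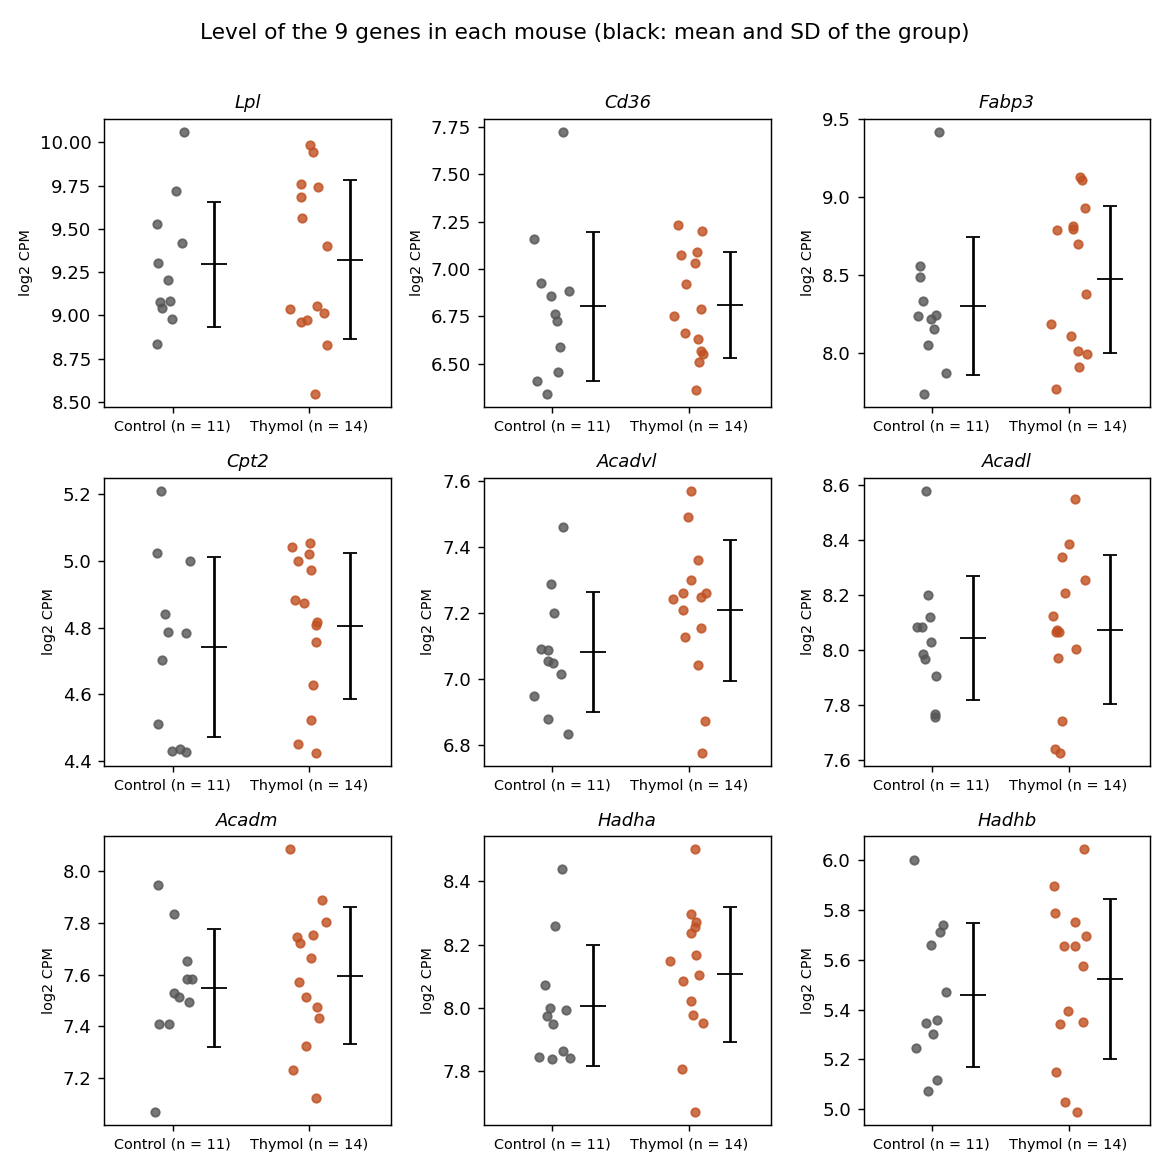
Level of each gene in log2 CPM (vertical axes, a separate range for each gene) in 11 Control and 14 Thymol mice. Points are mice and the black bars give the mean and SD of each group; the groups overlap for all 9 genes, and Control 14 is the highest Control mouse in each panel.

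Among the genes of entry into the fibre, Lpl (chr8:68880491-68907448, plus strand, GRCm38) was the most abundant of the 9, at 9.31 ± 0.41 log2 CPM (SD, n = 25), higher than 98.9% of all genes. QuantSeq tags are taken at the 3′ end and do not grow in number with transcript length. Levels are compared between genes as tags, and how evenly different transcripts gave tags was not tested. Control mice ranged from 8.83 through a median of 9.20 to 10.06, and Thymol mice from 8.55 through 9.23 to 9.99. The groups covered nearly the same range, and the difference was 0.03 (SE 0.15, 95% interval -0.28 to 0.33, unadjusted p = 0.867 and adjusted p = 0.9999 in limma). Fabp3 (chr4:130308595-130315463, plus strand) had a mean of 8.40 ± 0.46, the widest spread of the 9 genes, 3.21-fold between its lowest and highest mouse. Its Control values ran from 7.74 through 8.24 to 9.42 and its Thymol values from 7.77 through 8.54 to 9.13. The Thymol median was higher, but the single highest mouse was a Control, and the difference of 0.17 (SE 0.16, interval -0.16 to 0.51, unadjusted p = 0.305, adjusted p = 0.9999, limma) was within the spread. With each mouse left out, the Fabp3 difference ran from 0.12 (without Control 19) to 0.28 (without Control 14).

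Cd36 (chr5:17781690-17888801, minus strand) averaged 6.81 ± 0.33 log2 CPM. It ranged in Control mice from 6.34 through 6.76 to 7.72, and in Thymol mice from 6.36 through 6.77 to 7.23. Control 14 stood above all other mice. The difference was 0.01 (SE 0.12, interval -0.24 to 0.26, unadjusted p = 0.939, limma).

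Cpt2 (chr4:107903981-107923610, minus strand), the carnitine shuttle gene, was the least abundant of the 9 at 4.78 ± 0.24 log2 CPM and the least deeply counted, with a median of 207 reads per library. Counting error alone accounted for 18.8% of its variance, against 0.277% for Lpl. Control mice ranged from 4.43 through 4.79 to 5.21 and Thymol mice from 4.42 through 4.85 to 5.05. The difference was 0.06 (SE 0.10, interval -0.13 to 0.26, unadjusted p = 0.514, limma), and 0.03 without Control 35 or 0.11 without Control 14.

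The acyl-CoA dehydrogenases varied less between mice than Lpl or Fabp3. Acadl (chr1:66830839-66863277, minus strand) was at 8.06 ± 0.25 log2 CPM, Acadm (chr3:153922357-153944632, minus strand) at 7.57 ± 0.25 and Acadvl (chr11:70010183-70015411, minus strand) at 7.15 ± 0.21. This order, long over medium over very long chain, was seen in 25 of 25 mice for both neighbouring pairs. Acadvl had the smallest unadjusted p of the 9 genes. Its Control values ran from 6.83 through 7.05 to 7.46 and its Thymol values from 6.78 through 7.24 to 7.57. The lowest mouse (Thymol 20) and the highest (Thymol 24) were both treated, and the difference was 0.13 (SE 0.08, interval -0.03 to 0.28, unadjusted p = 0.112, adjusted p = 0.9999, limma). Without Thymol 20 the Acadvl difference was 0.16 (unadjusted p = 0.0346) and without Control 14 it was 0.16 (unadjusted p = 0.0359), with adjusted p = 0.999 both times (limma).

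Acadl ranged in Control mice from 7.76 through 8.03 to 8.58 and in Thymol mice from 7.62 through 8.07 to 8.55, a difference of 0.03 (SE 0.09, interval -0.16 to 0.22, unadjusted p = 0.742, limma). Acadm ranged in Control mice from 7.07 through 7.53 to 7.95 and in Thymol mice from 7.12 through 7.62 to 8.08, a difference of 0.05 (SE 0.09, interval -0.14 to 0.24, unadjusted p = 0.614, limma). The groups overlapped over nearly the whole range of both genes.

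For the trifunctional protein, Hadha (chr5:30118304-30155162, minus strand) was at 8.06 ± 0.21 log2 CPM and Hadhb (chr5:30155248-30184593, plus strand) at 5.49 ± 0.30. Tags of Hadha outnumbered those of Hadhb 5.94-fold on average and in 25 of 25 mice. Whether their transcripts differed as much was not tested. Hadha ranged in Control mice from 7.84 through 7.98 to 8.44 and in Thymol mice from 7.67 through 8.13 to 8.50, a difference of 0.10 (SE 0.08, interval -0.06 to 0.26, unadjusted p = 0.211, limma). Hadhb ranged in Control mice from 5.07 through 5.36 to 6.001 and in Thymol mice from 4.99 through 5.61 to 6.04, a difference of 0.06 (SE 0.12, interval -0.17 to 0.30, unadjusted p = 0.578, limma). Without Thymol 24 the Hadhb difference was 0.02 and without Control 14 it was 0.12. The 3′ ends of Hadha, Fabp3 and Acadvl overlap genes on the other strand (Garem2, Zcchc17 and Dvl2), and the strand setting of the counting is not given in the sources used here.

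In tags, the levels of the 9 genes thus fell in the order Lpl, Fabp3, Hadha, Acadl, Acadm, Acadvl, Cd36, Hadhb and Cpt2. Hadha and Acadl could not be ordered, with Hadha higher in 12 of 25 mice and a mean difference of 0.0025 ± 0.13 log2 (SD, n = 25). Fabp3 was above Hadha in 22 of 25 mice and Acadvl above Cd36 in 23 of 25, and each of the other neighbours held its place in 25 of 25 mice.

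**Figure D2:**
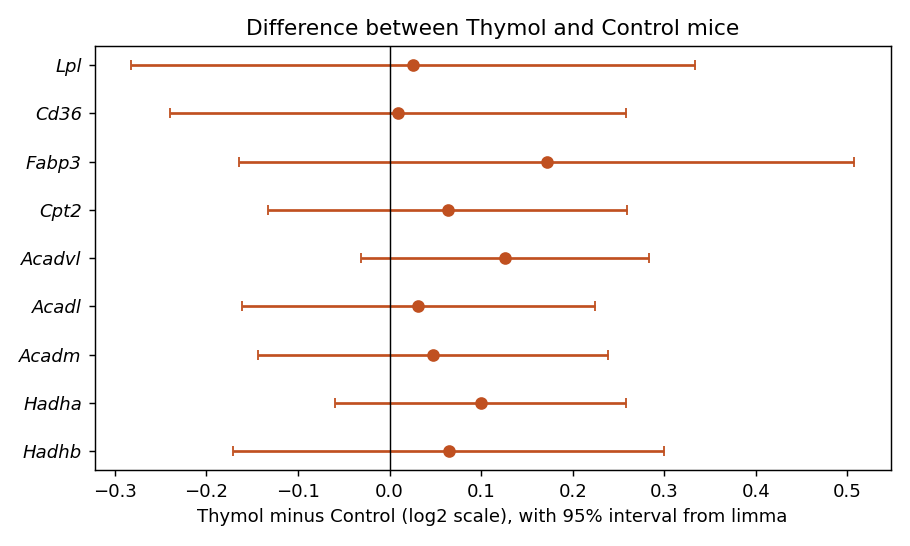
Mean difference between Thymol and Control mice (horizontal axis, log2 scale) with its 95% interval from limma, for 14 Thymol and 11 Control mice. All 9 points lie between 0.01 and 0.17 and all 9 intervals cross 0.

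The 9 genes moved together from mouse to mouse. Over the 36 pairs the median Pearson r across 25 mice was 0.68 (range 0.40 to 0.86), whereas the median over all 38971206 gene pairs was -0.0011 and 0.0612% of all pairs lay above 0.68. Of the 36 pairs, 21 had an adjusted permutation p under 0.05 (100000 two-sided permutations, adjusted over all genes paired with the first gene), beside 0.972% of all genes tested against the 9 genes in the positive direction. The median r was 0.66 among Control mice and 0.69 among Thymol mice. All values of a mouse come from the same library and scaling. Without Control 14, the mouse with the highest mean over the 9 genes, it was 0.63.

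The 5 closest pairs were spread over entry and oxidation genes. Acadvl and Hadha, which act on long chains in succession, had r = 0.86 (rho = 0.84, adjusted permutation p = 0.00519), and Acadvl and Acadm had r = 0.86 (rho = 0.79, adjusted permutation p = 0.00519). Lpl and Cd36, the entry genes at the capillary and cell membrane, had r = 0.85 (rho = 0.81, adjusted permutation p = 0.00384). Fabp3 and Acadl had r = 0.85 (rho = 0.81, adjusted permutation p = 0.00552), and Acadl and Hadha had r = 0.85 (rho = 0.81, adjusted permutation p = 0.00420). All of these raw permutation p-values were 1e-05, the smallest that the permutations can give, except that of rho for Acadvl and Acadm (2e-05). Without the 2 mice farthest from the median of the first gene, r was 0.79, 0.79, 0.84, 0.80 and 0.77 in the same order.

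Among the dehydrogenases and both trifunctional subunits the 10 pairs had r between 0.73 and 0.86. Hadha and Hadhb, the head-to-head pair shown above, had r = 0.78 (rho = 0.72, raw permutation p = 3e-05 and 0.00013, adjusted 0.00697 and 0.0171), or 0.68 without Control 14 and Thymol 24. Pairs of Lpl or Cd36 with these 5 mitochondrial genes were looser, from 0.50 to 0.70. Cpt2 was the least tied to the rest. Its 8 pairs had a median r of 0.43 and included the 3 lowest of all 36, with Hadha (r = 0.40, rho = 0.38), Acadl (r = 0.40, rho = 0.30) and Lpl (r = 0.40, rho = 0.29), whose adjusted permutation p-values were 0.518, 0.515 and 0.377. Without Thymol 20 the Cpt2 pairs had a median of 0.54 (0.46 to 0.61), and the other 28 pairs had 0.71 (0.73 with all mice). Among Control mice the Cpt2 pairs had a median of 0.61 (0.35 to 0.78, the highest with Hadhb) and among Thymol mice 0.35 (0.17 to 0.59, the lowest with Acadvl), whereas the medians of the other 28 pairs were 0.68 and 0.76. The difference between the groups was not tested. The larger counting error of Cpt2, given above, lies beside these values and its part in them was not tested.

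**Figure D3:**
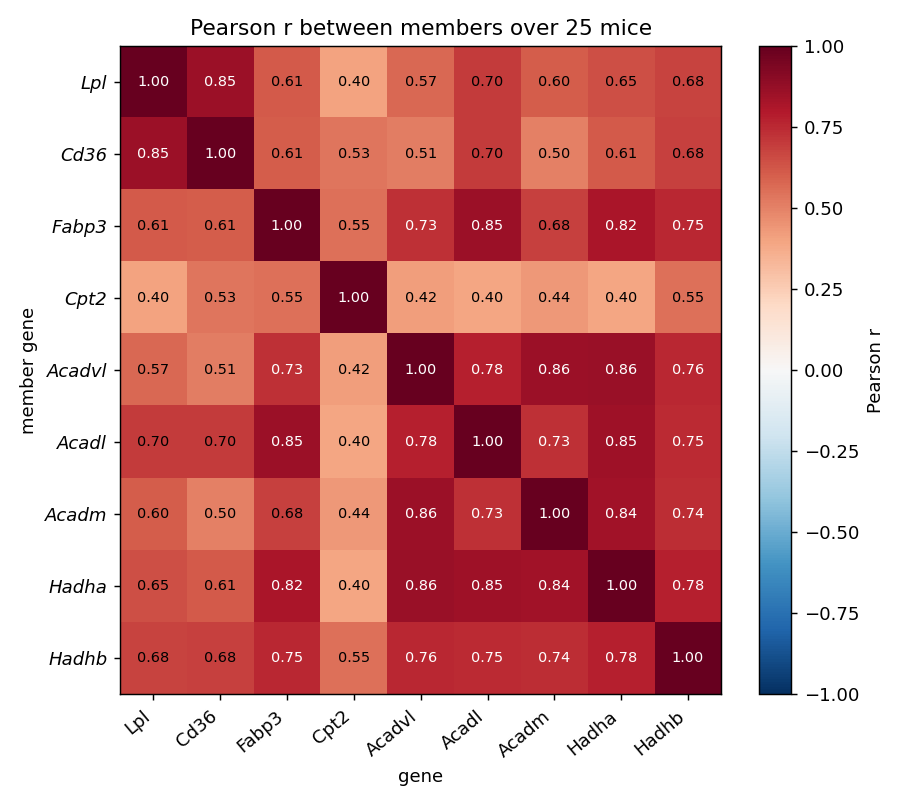
Pearson r over 25 mice for each pair of the 9 genes, on a colour scale from -1 to 1 with the value written in each cell; the diagonal is each gene with itself. The dehydrogenases and trifunctional subunits form a block from 0.73 to 0.86, and the Cpt2 row holds the lowest values, down to 0.40.

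The mice at both ends were the same for many of the genes. Averaged over the 9 genes after centring each on its mean, Control 14 was highest at 0.58 log2, followed by Thymol 24 at 0.42 and Thymol 11 at 0.34, and all 3 were above the median for 9 of 9 genes. Thymol 28 (-0.39), Thymol 20 (-0.33) and Thymol 21 (-0.26) were lowest. Both ends thus held treated mice.

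These levels were next set against slow-fibre genes. The slow-fibre level was the mean of 11 genes of slow muscle (Myh7, Myl2, Tnnt1 and others, each centred on its mean), and it ran from -3.84 in Thymol 20 to 1.80 in Thymol 6. In a limma model with group as a further term, 4 of the 9 genes rose with it at an adjusted p under 0.05, beside 0.919% of all genes. Per log2 unit of the slow-fibre level, Lpl rose by 0.22 (SE 0.05, adjusted p = 0.0119), Fabp3 by 0.23 (SE 0.05, adjusted p = 0.0140), Acadl by 0.13 (SE 0.03, adjusted p = 0.0422) and Hadha by 0.11 (SE 0.02, adjusted p = 0.0122). The other 5 slopes were between 0.04 (Cpt2, adjusted p = 0.782) and 0.15 (Cd36, adjusted p = 0.103, and Hadhb, adjusted p = 0.0669), with 0.12 for Acadm (adjusted p = 0.0762) and 0.09 for Acadvl (adjusted p = 0.123). Without Thymol 20 the slope of Cpt2 was 0.11 (adjusted p = 0.379) and that of Acadvl 0.07 (adjusted p = 0.466).

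The count depended on single mice and on the measure. Without Thymol 20, the slopes of Lpl (0.28, adjusted p = 0.0115) and Fabp3 (0.31, adjusted p = 0.00935) passed, beside 1.12% of all genes, and those of Acadl (0.13, adjusted p = 0.115) and Hadha (0.11, adjusted p = 0.0916) did not. Without Thymol 24, a mouse with a slow-fibre level of -0.34 but high oxidation genes, 6 genes passed, beside 0.998% of all genes. By permutation of Pearson r over 25 mice, Lpl (r = 0.65, raw p = 0.00029, adjusted p = 0.0376; rho = 0.70, raw p = 0.00016, adjusted p = 0.0261) and Hadha (r = 0.65, raw p = 0.0003, adjusted p = 0.0383; rho = 0.59, raw p = 0.00223, adjusted p = 0.121) passed, beside 0.771% of all genes. Without Thymol 6 and Thymol 20, the mice farthest from the median slow-fibre level, r was 0.61 for Lpl and 0.58 for Hadha. Within groups it was 0.66 in both for Lpl, and 0.74 in Control and 0.70 in Thymol mice for Hadha. Over the 9 genes r ranged from 0.22 (Cpt2, 0.44 without Thymol 20) to 0.65. Without Thymol 20 the lowest r was that of Acadvl, at 0.38, against 0.51 with all mice.

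No difference of these slopes between the groups was called. With the limma interaction of group and slow-fibre level, 0 genes (0.0%) passed an adjusted p of 0.05 and 397 (4.5%) an unadjusted p of 0.05. The smallest unadjusted p among the 9 genes was that of Cd36 (p = 0.0955), whose slope was 0.29 in Control and 0.11 in Thymol mice.

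Myh2, the myosin of fast oxidative (2A) fibres, followed the fatty acid genes more closely than the slow-fibre level did for 8 of the 9 genes, and for Cpt2 both r were 0.22, or 0.44 without Thymol 20. The difference between the r values was not tested. Myh2 ranged from 8.69 log2 CPM in Thymol 20 to 11.23 in Thymol 11. By permutation of r, 7 of the 9 genes passed an adjusted p of 0.05, beside 1.33% of all genes. Hadha had r = 0.82 (rho = 0.84), Acadl 0.77 (rho = 0.79), Acadm 0.77 (rho = 0.76), Acadvl 0.75 (rho = 0.73), Lpl 0.74 (rho = 0.81), Fabp3 0.71 (rho = 0.76) and Hadhb 0.68 (rho = 0.71). Their raw permutation p-values ran from 1e-05, the smallest possible, to 8e-05 for r and to 0.00011 for rho, and the adjusted p of r ran from 0.00210 to 0.00954. For Cd36 r was 0.63 (rho = 0.73, raw p = 0.00109 and 0.00011, adjusted p = 0.0617 and 0.0117). Without Thymol 11 and Thymol 20 the 7 values of r lay between 0.68 and 0.80.

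Thymol 24 shows how the measures differ in a single mouse. Its Myh7 level of 7.53 log2 CPM was below the mean of 7.99, its Myh2 level of 11.08 was above the mean of 10.48, and its Hadha (8.50), Acadm (8.08), Acadvl (7.57) and Hadhb (6.04) levels were the highest of the 25 mice. With the slow-fibre level and Myh2 in the same model, the slow-fibre slopes of the 9 genes lay between -0.09 and 0.03 and 0 of them passed, beside 0.0227% of all genes. The Myh2 slope passed for Acadvl alone (0.44, SE 0.10, adjusted p = 0.0478, limma), beside 0.159% of all genes, and the other 8 Myh2 slopes lay between 0.03 and 0.56. Slow-fibre level and Myh2 were themselves correlated at r = 0.88, so their slopes are estimated with large errors. Without Thymol 20 that r was 0.79, the slow-fibre slopes lay between -0.09 and 0.06 with 0 passing (0.0794% of all genes), and the Myh2 slope again passed for Acadvl alone (0.45, SE 0.10, adjusted p = 0.0432, limma; 0.306% of all genes).

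**Figure D4:**
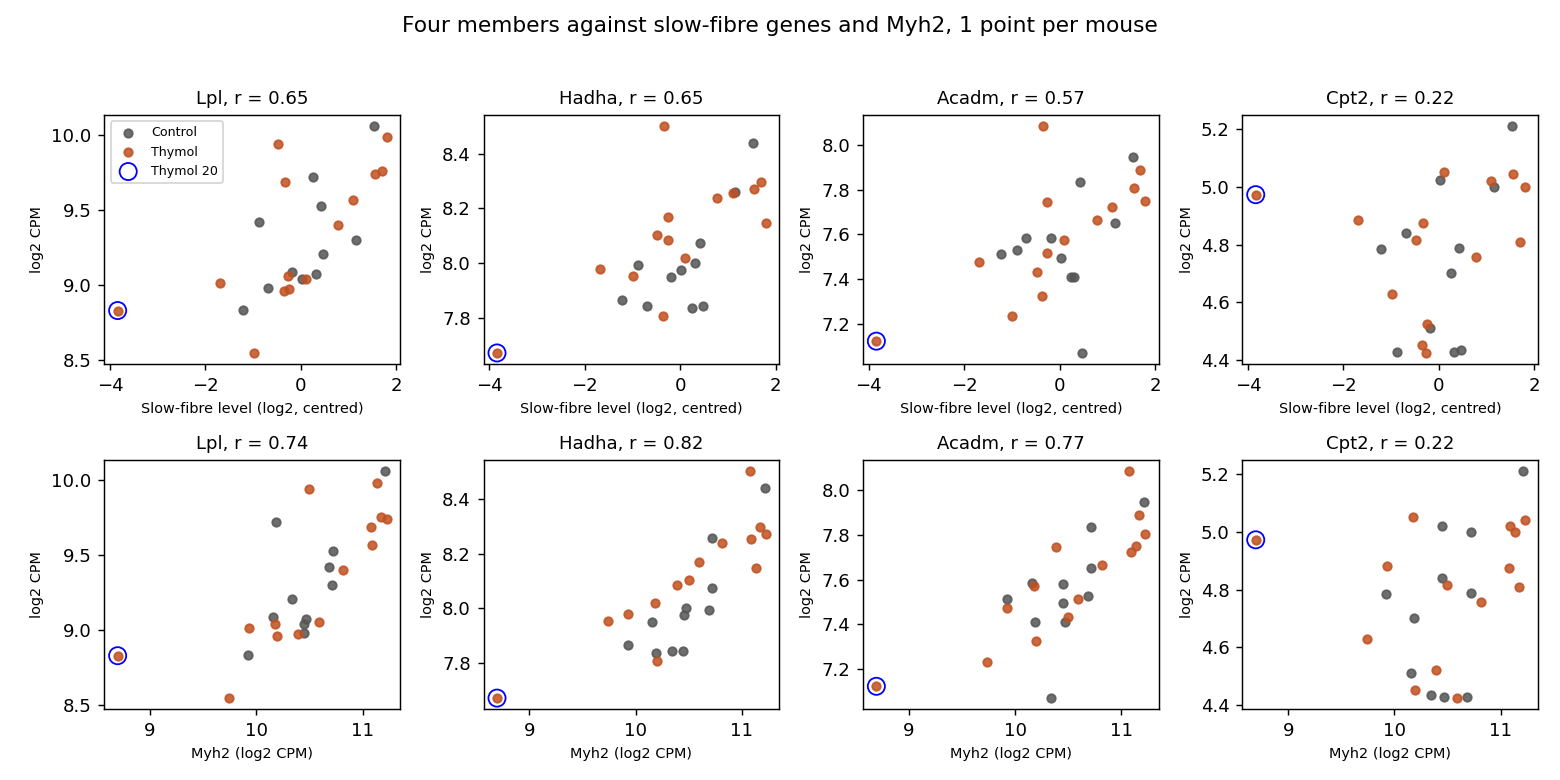
Levels of Lpl, Hadha, Acadm and Cpt2 in log2 CPM (vertical axes) against the slow-fibre level (top, centred log2) and Myh2 (bottom, log2 CPM), with 1 point per mouse (Control grey, Thymol orange) and Thymol 20 circled. Hadha has r = 0.65 with the slow-fibre level and r = 0.82 with Myh2, and Cpt2 has r = 0.22 with both (0.44 without Thymol 20).

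The co-variation was also measured with the fibre genes taken out. After regression on the slow-fibre level the median r over the 36 pairs was 0.53, after regression on Myh2 it was 0.43 and after both it was 0.45. Lpl and Cd36 still had r = 0.74 after Myh2 was removed, and Acadvl and Hadha 0.65, whereas r between Lpl and Acadvl went from 0.57 to 0.04.

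Energy metabolism and other cell types were examined in the same way. The level of 18 citric acid cycle genes went with 6 of the 9 genes at an adjusted permutation p under 0.05, beside 1.54% of all genes. The highest r was that of Acadl (0.78, rho = 0.79, raw p = 2e-05 for both, adjusted p = 0.00346 and 0.00705), followed by Acadm (0.76), Hadha and Acadvl (0.75 each), Fabp3 (0.67) and Hadhb (0.66). Lpl (0.50) and Cd36 (0.44) did not pass. The level of 10 glycolysis genes went the other way with Lpl (r = -0.68, rho = -0.73, raw p = 0.0002 and 0.00011, adjusted p = 0.0248 and 0.0167), a call made for 0.295% of all genes. Cd36 had r = -0.58 (rho = -0.66, adjusted p = 0.0821 and 0.0322), and the mitochondrial genes lay between -0.13 and -0.45. Single glycolysis genes had a median r of -0.41 with the mean of the 9, from -0.56 (Pkm) to 0.52 (Hk2).

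**Figure D5:**
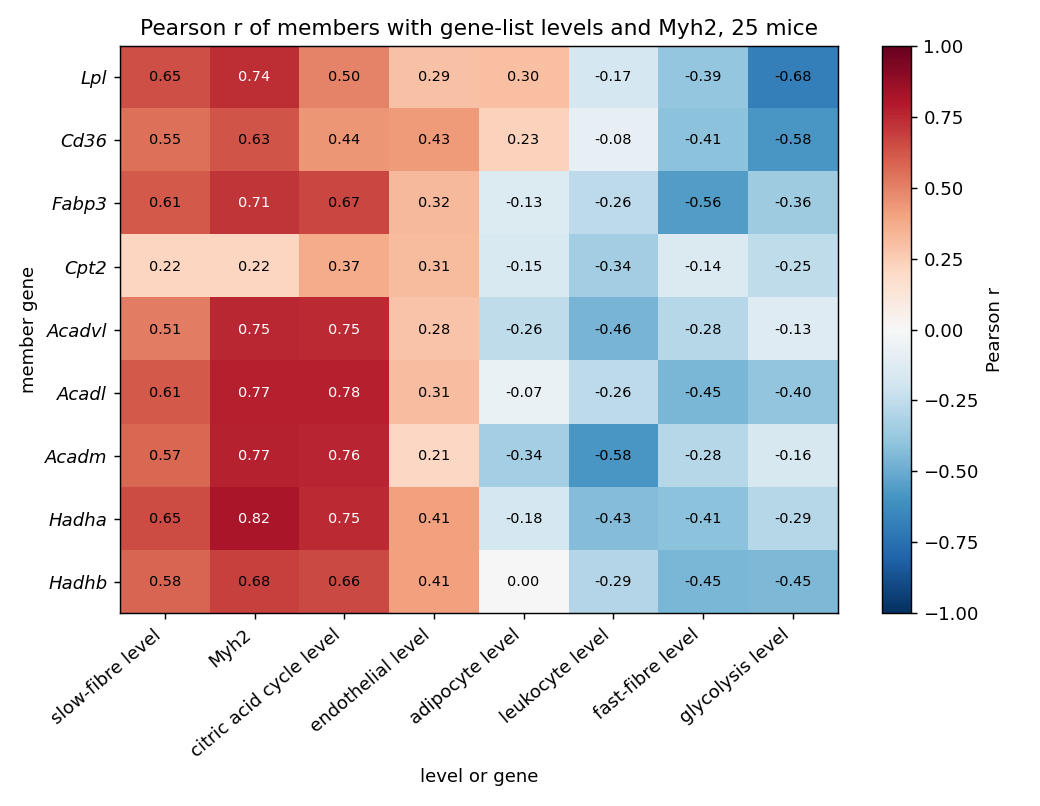
Pearson r over 25 mice of each gene (rows) with the mean level of 7 gene lists and with Myh2 (columns), on a colour scale from -1 to 1 with values in the cells. Myh2 and the citric acid cycle level have the highest values, up to 0.82 and 0.78, and the glycolysis level reaches -0.68 with Lpl.

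Adipocytes also make Lpl and Cd36, endothelial cells make Cd36, and macrophages make both. None of the 9 genes passed with the adipocyte level (9 of 12 listed genes in the table), the endothelial level (13 of 13) or the leukocyte level (6 of 13), nor with the fast-fibre level (11 of 11). With the endothelial and fast-fibre levels no gene at all passed in either direction (0.0%), so these cannot set the 9 genes apart. With the fast-fibre level r was between -0.56 (Fabp3) and -0.14 (Cpt2). Taken singly, the 11 fast-fibre genes had a median r of -0.54 with the mean of the 9, from -0.69 (Actn3) to 0.52 (Myh1). Myl1 varied most of them between mice (SD 1.18 log2). The adipocyte level had 0.556% of all genes passing in the positive and 0.034% in the negative direction, and the leukocyte level 2.77% and 0.737%. For the adipocyte level r was 0.30 with Lpl and 0.23 with Cd36 (0.08 and 0.07 without Thymol 7 and Control 19), and between -0.34 and 0.0029 for the other 7. It was highest in Thymol 7 (2.81) and Control 19 (2.37), which had Lpl levels of 9.94 and 9.72 log2 CPM with slow-fibre levels of only -0.48 and 0.25. The adipocyte level ranged from -1.59 to 2.37 in Control and from -2.39 to 2.81 in Thymol mice, and Adipoq, a defining adipocyte gene, from 1.44 to 7.23 log2 CPM. With the slow-fibre and adipocyte levels in the same model, the slow-fibre slopes of Lpl (0.23, adjusted p = 0.00151) and Cd36 (0.16, adjusted p = 0.0443) passed. So did those of Fabp3 (0.23, adjusted p = 0.0169), Acadl (0.13, adjusted p = 0.0416) and Hadha (0.11, adjusted p = 0.0160). The share of all genes with such a slope was not counted in this model. The adipocyte slopes of Lpl (0.13, SE 0.04, adjusted p = 0.207) and Cd36 (0.08, SE 0.04, adjusted p = 0.489) did not pass (limma), beside 0.817% of all genes rising with the adipocyte level. The endothelial level had r = 0.43 with Cd36 (adjusted p = 0.676) and 0.41 with both Hadha and Hadhb. Without Control 14 and Control 27 these were 0.19, 0.32 and 0.33. The leukocyte level, highest in Control 18, had r = -0.58 with Acadm (rho = -0.41, adjusted p = 0.0607 and 0.301). The part of these cells in the levels of the 9 genes was not tested further.

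The genes outside the list that were most like the mean of the 9 included further enzymes of acyl-CoA breakdown. Over 25 mice, r was 0.91 for Acat1, the mitochondrial thiolase for short acetoacetyl-CoA, and 0.88 for Hadh, the short-chain hydroxyacyl-CoA dehydrogenase. It was 0.89 for Coq8a, which serves coenzyme Q synthesis, 0.88 for Ldhb, the lactate dehydrogenase subunit typical of oxidative muscle, and 0.88 for Mybpc1, the slow-type myosin-binding protein C. The least alike were Ppp3ca (-0.84), the catalytic subunit of calcineurin, Pgm1 (-0.78), a phosphoglucomutase of glycogen metabolism, and Eif4e3 (-0.77). Over all other genes the median r was -0.02.

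Single genes had their own nearest partners. Acsl1, which activates long-chain fatty acids to acyl-CoA, was nearest to both Lpl (r = 0.88) and Cd36 (r = 0.84). The nearest to Fabp3 was myoglobin, Mb (r = 0.86), to Acadl it was Hadh (r = 0.91), to Acadm Hsdl2 (r = 0.86), to Acadvl Fndc5 (r = 0.87), to Hadha Ldhb (r = 0.86) and to Hadhb Acat1 (r = 0.81). For Cpt2 it was the peroxiredoxin Prdx1 (r = 0.71, rho = 0.77), with an adjusted permutation p of 0.191.

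The other genes of the pathway were taken from 7 lists of 80 genes (uptake and activation, carnitine shuttle, further β-oxidation enzymes, electron transfer, lipid droplets, transcription factors and fatty-acid responsive genes), of which 69 were in the table. Between Thymol and Control mice 0 of 69 passed an adjusted p of 0.05, and 1 was higher and 3 were lower at an unadjusted p of 0.05 (limma), beside 1.83% higher and 1.7% lower of all genes. Counts this small, near the background, are no result about the lists. The higher gene was Acaa1a, a peroxisomal thiolase, at 3.57 ± 0.16 (SD, n = 11) in Control and 3.75 ± 0.21 (SD, n = 14) log2 CPM in Thymol mice, a difference of 0.18 (SE 0.09, unadjusted p = 0.0489, limma). Next in order were the mitochondrial thiolase Acaa2, with a difference of 0.19 (unadjusted p = 0.0898), and the coactivator Ppargc1b, with 0.21 (unadjusted p = 0.151). The lower genes were Vldlr, a receptor that binds triglyceride-rich lipoproteins (-0.26, SE 0.10, unadjusted p = 0.0186), Ppard, the fatty-acid sensing receptor PPARδ (-0.23, SE 0.10, unadjusted p = 0.0214), and Nrip1, a corepressor of oxidative genes (-0.21, SE 0.09, unadjusted p = 0.0234). Vldlr went from 7.74 ± 0.26 in Control to 7.48 ± 0.30 in Thymol mice, and Ppard from 4.04 ± 0.13 to 3.81 ± 0.28. All 6 of these genes had an adjusted p of 0.9999 (limma).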

How the data were processed

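Gastrocnemius RNA of 25 mice was sequenced by the authors as QuantSeq 3′ FWD libraries. Per the study's methods and the submitters' notes, reads were aligned to GRCm38 with STAR 2.5.3, counted with HTSeq 0.6.1, filtered and scaled by TMM. The deposited values are log2 CPM for 8829 genes, with about 2 reads added before the log2. Reads were recovered from the steps between values (100% whole within 0.05 reads, depth median 7503259); intervals from them cover counting error only.

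limma 3.58.1 (R 4.3.3) with a variance trend was fitted to all genes as deposited, two-sided, with Benjamini-Hochberg adjustment at 0.05. Correlations used 100000 permutations (Python 3.11.15, numpy 2.4.6, scipy 1.17.1). Fits were tested on simulated data. Gene positions are from GENCODE M21.

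The genes and lists were chosen with earlier results of these data known. Named were all members, the 5 closest and 3 loosest pairs (36 pairs, as 1 gene was not analysed), the 5 most and 3 least alike genes, each member's nearest gene, and 3 pathway genes per direction. Myh2 was examined in detail after its values were seen.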

Additional observations from a re-analysis of the deposited data

How the results depend on the processing

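The count of genes called between Thymol and Control mice was 0 under each of 14 alternatives (quantile normalization, median centring, a prior of 0.5 reads, the 75% of genes with the highest mean, voom, no trend, robust moderation, sample weights, a block, and covariates for library number and for slow-fibre, adipocyte and endothelial levels, and 3 mice left out) and with each mouse left out. No member passed an unadjusted p of 0.05, except that 1 (Acadvl) did with the slow-fibre level as covariate; with each mouse left out the number ran from 0 to 1 (1 without Control 14 or Thymol 20). Pathway genes past that p ran from 2 (without Control 19 or Control 31) to 4 with each mouse left out. The Cd36 difference changed sign with voom (-0.0016), and with single mice left out it ran from -0.037 to 0.10, that of Lpl from -0.026 to 0.10, Acadl from -0.0053 to 0.085 and Acadm from -0.00018 to 0.088.

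Of the 9 members, 4 rose with the slow-fibre level; the number was 0 with Myh7 alone, 0 in Control or in Thymol mice alone (fewer samples), 2 with the endothelial level, 2 with library number and 0 with Myh2 as a further covariate, and 2 by permutation of r or of rho. It was 5 with the slow minus fast level, with the adipocyte level or without Control 18, Control 19 and Thymol 20, 3 with quantile normalization, and 4 with median centring, a prior of 0.5 reads or the top 75% of genes. It ran from 2 (without Thymol 20) to 6 (without Thymol 24) with each mouse left out. Shares of all genes are given above for the main fit, Myh2, permutation of r, and without Thymol 20 or Thymol 24. For the other settings the share was not counted, so their counts cannot set the members apart from all genes. Beside Myh2 the slope turned negative for Acadvl (-0.089), Acadm (-0.082), Acadl (-0.053), Hadha (-0.035) and Hadhb (-0.0083), and without Thymol 20 as well (0 called) for Acadvl (-0.087), Acadm (-0.074), Acadl (-0.040) and Hadha (-0.028). The causes of these changes in number and sign were not tested. The difference of slopes stayed at 0 members throughout. The median pairwise r moved from 0.68 to 0.53 without the slow-fibre level, 0.43 without Myh2 and 0.45 without both. Each mouse left out gave 0.63 to 0.73, and 0.35 (without Control 14) to 0.54 (without Thymol 20) for the Cpt2 pairs. The Myh2 and permutation alternatives were chosen after seeing the data. The first label number as a replicate block gave 0 genes called, 0 members past an unadjusted p and 4 slopes called, with 3 pathway genes (from 4) and 296 genes (from 312) past an unadjusted p, so it changed no call among the members; mice sharing that number across groups did not deviate together (mean correlation -0.0022 over 9 pairs). A setting with no filter beyond that of the authors is the deposited table and cannot move a result. Depth limits Cpt2 most, at a median of 207 reads.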

Other observations

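Across 25 mice the further genes of fat oxidation differed in how they followed the mean of the 9 genes, given here as Pearson r with no test. The 3 electron transfer genes that take electrons from the acyl-CoA dehydrogenases had r between 0.69 (Etfa) and 0.83 (Etfb). Of 18 other β-oxidation enzymes, 10 had r above 0.5, and Acaa1a, which works in peroxisomes, was lowest at -0.19. In the carnitine shuttle the carrier Slc25a20 had r = 0.77, and Cpt1a, the liver-type form of the outer-membrane enzyme, had r = -0.34. Plin5, which coats lipid droplets beside mitochondria, had r = 0.78, and the oestrogen-related receptor Esrrg had r = 0.71. These named genes were the ends of their lists. Above 0.5 were 3 of 3 electron transfer genes, 2 of 6 carnitine shuttle genes (median 0.27), 4 of 14 uptake and activation genes (median 0.14), 2 of 14 lipid droplet genes (median 0.38, lowest Dgat1 at -0.29), 2 of 11 receptors and coactivators (median 0.13, lowest Nrip1 at -0.29) and 0 of 3 fatty-acid responsive genes (median -0.05). Over all other genes, 3.72% had r above 0.5.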
